A study of Mus musculus with 4 samples.

Results

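The microRNAs miR-204 and miR-211 are described here through the mature arms of their hairpins, in small RNA of the medial prefrontal cortices of mice under chronic unpredictable mild stress (CUMS) and of control mice. The members were chosen by name as the arms of these precursors. Of the 4 arms, 3 are listed among the 1038 known miRNAs of the authors' table, namely mmu-miR-204-5p, mmu-miR-211-5p and mmu-miR-204-3p. mmu-miR-211-3p is not listed and has no value here. All mice were male juvenile mice of the strain C57BL/6 by the labels, C57BL/6J in the methods, taken into the study at postnatal day 21 and first given a week to adapt. The CUMS mice lived for 3 weeks under social isolation and varied mild stressors. The sequenced mice were the minority of the stressed animals whose sucrose preference, Y-maze and forced swimming tests had all changed, so the group stands for susceptible animals and not for all stressed ones. None of these stressors was given to the control group. There were 2 libraries in each group. RNA was isolated mouse by mouse, so the numbered libraries are taken to be of separate mice, which the sources used here do not state outright. The paper's quantitative RT-PCR used more mice per group than there are libraries, with samples from the sequenced tissues. Libraries pooled from several mice can therefore not be excluded.

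A microRNA is cut from a hairpin and guides the silencing of messenger RNAs that pair with its seed, bases 2 to 8 of the mature strand. miR-204 lies in an intron of Trpm3 and miR-211 in an intron of Trpm1, which encode related cation channels of the melastatin family. In the brain, miR-204 is known as an abundant miRNA of the choroid plexus, the epithelium that secretes cerebrospinal fluid, and in the eye as one of the retinal pigment epithelium. miR-211 is known from pigment cells, where the transcription factor MITF drives it together with Trpm1.

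The mature sequences are shown because the arms differ from each other in ways that decide how their reads can be told apart. They are RefSeq sequences on build GRCm38.p6, 5′ to 3′, with the seed in capitals, and all 4 arms were found there.
mmu-miR-204-5p: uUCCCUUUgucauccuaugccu
mmu-miR-211-5p: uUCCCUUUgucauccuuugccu
mmu-miR-204-3p: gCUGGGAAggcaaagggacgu
mmu-miR-211-3p: gCAAGGACagcaaaggggggc
The 5p arms have the same seed and differ by 1 base of 22, A17U, with the base of miR-204-5p first and positions counted from 1 at the 5′ end. The 3p arms have different seeds and carry the same base at 14 of 21 positions. Among the 1679 mature mouse miRNAs of the reference, 1 other shares the seed of the 5p arms, mmu-miR-7670-3p, which had 1 read in control library b and 0 in the other libraries. The seed of miR-204-3p is shared by mmu-miR-7684-5p, and that of miR-211-3p by 0 others.

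The hairpins place the mature arms, here in capitals, at the 5′ and 3′ sides of the stem.
Mir204: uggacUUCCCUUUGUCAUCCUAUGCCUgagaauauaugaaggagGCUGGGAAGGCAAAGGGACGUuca
Mir211: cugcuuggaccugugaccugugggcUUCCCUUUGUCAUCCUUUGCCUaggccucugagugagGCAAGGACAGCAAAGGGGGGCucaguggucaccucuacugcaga
Mir204 is 68 bases long and lies at chr19:22750605-22750672 on the plus strand, the strand of its host Trpm3. In GENCODE M21 on GRCm38, the hairpin is intronic in 18 transcripts of Trpm3 that span it and exonic in 0. In the longest coding one it lies in intron 6, which is 33462 bases long. Mir211 is 106 bases long and lies at chr7:64205806-64205911 on the plus strand, again the strand of its host. It is intronic in 12 transcripts of Trpm1 and exonic in 0, and in the longest coding transcript it also lies in intron 6, of 3682 bases. The nearest annotated exon upstream of the hairpin ends 760 bases before Mir204 and 1213 bases before Mir211.

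The deposited values are group means, made by the authors with DESeq after each library's reads were divided by its size factor. The reads of the single libraries were recovered from these means as whole numbers, which came out for 100% of the 1038 values of both groups. Within each group, a names the library with the larger size factor and b the other, since the means do not tell which is the first replicate. A library held between 9589323 and 10783592 reads on known miRNAs, so that 3 reads, taken as the floor, correspond to 0.278 to 0.313 RPM, reads scaled to the library total. Control library b stands apart from the others, because miRNAs of the miR-183 and miR-200 clusters took 9.32% of its reads against 0.0393% to 0.0722% in the other libraries. The miRNAs listed as markers of cortical neurons had reads in every library. They ran from miR-137-3p, with 705 to 1068 normalized reads, to miR-9-5p, with 501726 to 730096.

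The main strand of the pair was mmu-miR-204-5p. Its reads numbered 17193 in library a and 22004 in library b of the control group, against 16857 in library a and 11901 in library b of the CUMS group. Divided by the size factors, the control levels were 16817 and 21995 and the CUMS levels 15872 and 12609 normalized reads. Control library b was the highest and CUMS library b the lowest, and the groups did not overlap. The arm ranked between 50 and 68 of the 1038 miRNAs in the single libraries, and it took 0.124% to 0.204% of the reads.

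The mean of miR-204-5p in the authors' table is 19406 in control and 14241 in CUMS, which is 0.734 times the control mean and a log2 ratio of -0.45. The standard deviation (SD) of the normalized reads was 3661 in control and 2307 in CUMS (n = 2 each), and the pooled SD within groups was 0.26 on the log2 scale. Among the 358 miRNAs with a mean of at least 50 normalized reads and reads in every library, 28 (7.82%) had a lower ratio, and the median log2 ratio was 0.02. Of the 719 miRNAs that reached 5 reads in some library, 17.1% had both CUMS libraries below both control libraries, as miR-204-5p did. The nearest libraries of the groups were control library a with 1632 RPM (95% Wilson interval 1608 to 1657) and CUMS library a with 1617 RPM (1592 to 1641). On the RPM scale their intervals overlap. On the scale of normalized reads, the intervals of the same libraries are 16568 to 17070 and 15634 to 16113, which are apart, so that whether they differed by more than counting error depended on the scaling. In RPM, the intervals of control library b, 2014 to 2068, and of CUMS library b, 1219 to 1264, lie apart from those.

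**Figure D1:**
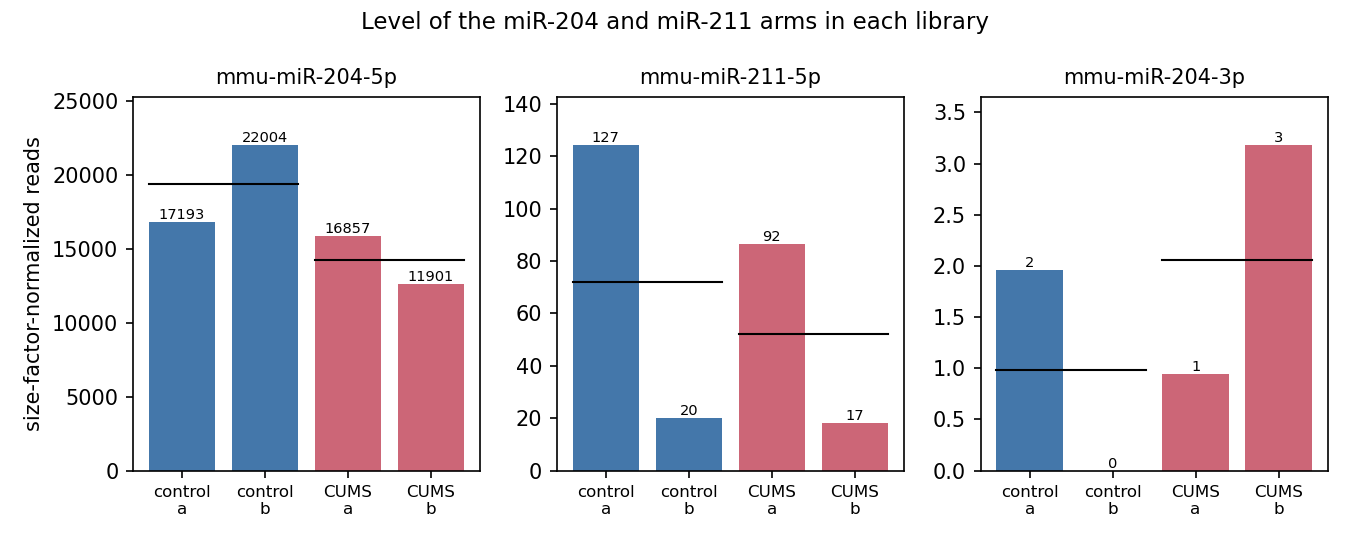
Size-factor-normalized reads (vertical axes) of mmu-miR-204-5p, mmu-miR-211-5p and mmu-miR-204-3p in the 4 libraries, with the whole reads above each bar and the authors' group mean as a black line. For mmu-miR-204-5p both CUMS libraries are below both control libraries, while for mmu-miR-211-5p 1 library of each group is high, with 127 and 92 reads, and 1 is low, with 20 and 17.

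mmu-miR-211-5p, the arm with the shared seed, was far less abundant and divided the libraries in another way. Its reads numbered 127 in library a and 20 in library b of the control group, against 92 in library a and 17 in library b of the CUMS group. In each group 1 library was high and 1 low, and the groups overlapped. In normalized reads, control library a was 6.21 times control library b, and CUMS library a was 4.81 times CUMS library b. In RPM, the Wilson intervals were 10.1 to 14.3 and 1.20 to 2.86 in control, and 7.19 to 10.8 and 1.11 to 2.84 in CUMS. The difference between the libraries of a group is therefore larger than counting error, and the libraries that were low are alike within it.

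The group means of miR-211-5p are 72.1 in control and 52.3 in CUMS, a ratio of 0.726 and a log2 ratio of -0.46. This is nearly the ratio of miR-204-5p, yet its pooled SD within groups was 1.74 on the log2 scale, several times the difference. The ratio turned with the library left out. It was 1.39 on the log2 scale without control library a, 0.26 without CUMS library b, -1.25 without control library b and -2.00 without CUMS library a. Its direction therefore depended on the libraries that entered it.

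Such a spread within both groups was rare. The log2 gap between the control libraries was 2.64 for miR-211-5p and the gap between the CUMS libraries was 2.27, against medians of 0.18 and 0.25 over the 358 miRNAs. In control, 6 miRNAs had a larger gap, and these 6 are all of the miR-183 and miR-200 clusters, high in control library b, where miR-211-5p was low. In CUMS, 1 miRNA had a larger gap, miR-187-3p, whose control libraries differed by 0.25 only. No miRNA other than miR-211-5p reached its gaps in both groups. The gaps of miR-204-5p were 0.39 in control and 0.33 in CUMS, and 23.7% and 36.6% of the miRNAs had larger ones.

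**Figure D2:**
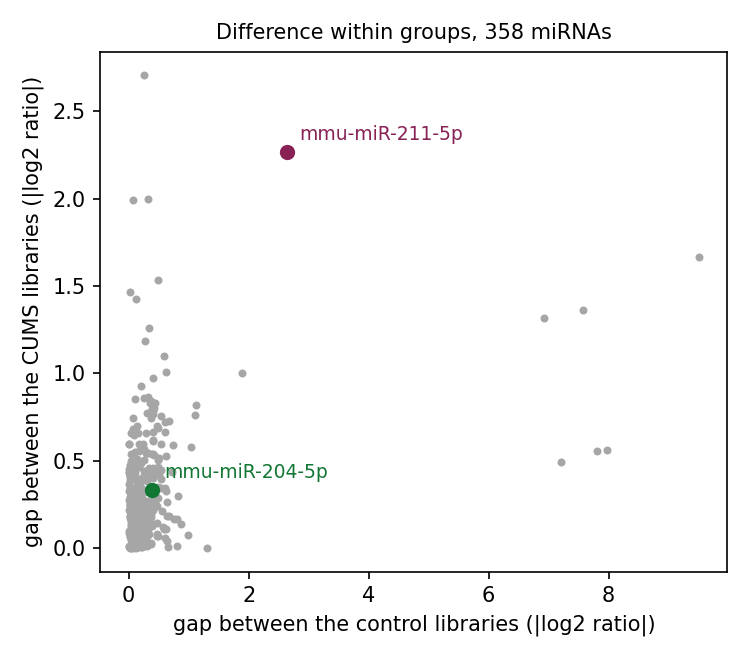
Absolute log2 ratio of normalized reads between the 2 control libraries (horizontal axis) and between the 2 CUMS libraries (vertical axis), 1 point for each of 358 miRNAs with a mean of at least 50. mmu-miR-204-5p lies among the bulk of the points, and mmu-miR-211-5p at 2.64 and 2.27 lies far from it on both axes, while the points with a still larger control gap are miRNAs of the miR-183 and miR-200 clusters.

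The share of miR-211-5p among the reads of both 5p arms puts the same values in 1 number for each library. It was 0.733% (95% Wilson interval 0.617% to 0.872%) in control library a and 0.0908% (0.0588% to 0.140%) in control library b. In CUMS it was 0.543% (0.443% to 0.665%) in library a and 0.143% (0.0891% to 0.228%) in library b. Per read of miR-211-5p there were thus from 135 to 1100 reads of miR-204-5p. The intervals of the high and the low library are apart in each group. The arms did not move as a fixed proportion of each other, although the ratio of their group means was nearly equal. The reads were matched to the hairpins without mismatch, so that the base at position 17 alone assigned a full-length read to 1 of the arms. The part of base errors at this position in the reads of miR-211-5p was not tested.

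**Figure D3:**
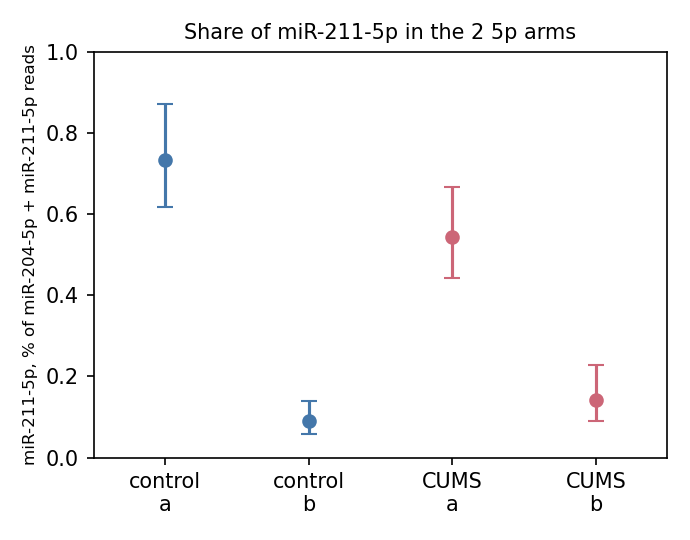
Percent of miR-211-5p among the reads of miR-204-5p and miR-211-5p (vertical axis) in each library, with 95% Wilson intervals that cover counting error only. The share is high in 1 library of each group (0.733% and 0.543%) and low in the other (0.0908% and 0.143%).

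mmu-miR-204-3p, the strand opposite miR-204-5p in the hairpin, was at the limit of detection. Its reads numbered 2 and 0 in control against 1 and 3 in CUMS, at or under the floor of 3 reads in each, so that no fold is given. Of the reads of the Mir204 arms, the 3p arm was 0.0116% in control library a and at most 0.0252% in any library. The 0 of control library b among 22004 reads allows a share of up to 0.0136%. Over the 4 libraries the minor arm of Mir204 had 0.00903% of the normalized reads of its hairpin. It was compared among hairpins with both arms listed under matching names and a mean of at least 50 normalized reads for the larger arm. Of these 202 hairpins, 7 (3.47%) had a lower share, and the median was 1.63%. Mir204 was therefore among the most one-sided of these 202. Hairpins with 1 arm unlisted or with unmatched names were left out, and those near the minimum level had too few reads to show so low a share. The place of Mir204 among all hairpins of the tissue was therefore not tested.

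The recovered reads of the 719 miRNAs were then compared between the groups with edgeR (quasi-likelihood). A miRNA was called where its unadjusted p was under 0.05 and its fold exceeded 1.5, the criteria of the study, and 3.34% of the miRNAs were called so. Of the arms, miR-204-5p and miR-211-5p entered the test and 0 were called. miR-204-5p had a log2 fold change of -0.48 in edgeR, with an unadjusted p of 0.060 and an adjusted p of 0.849, short of both criteria. For miR-211-5p the log2 fold change was also -0.48, with an unadjusted p of 0.641 and an adjusted p of 0.952 in edgeR. The DESeq2 Wald test gave miR-204-5p a log2 fold change of -0.45 with a standard error of 0.21 and an adjusted p of 0.984, and its unadjusted p passed the criterion while its fold did not. DESeq2 called 2.5% of the miRNAs by the same criteria. For miR-211-5p DESeq2 gave -0.47 with a standard error of 0.77 and an adjusted p of 0.998. At an adjusted p under 0.05, edgeR called 0 miRNAs (0%) and DESeq2 called 0, against 30 and 24 at an unadjusted p under 0.05. For a single miRNA, the two-sided exact permutation test over 2 against 2 libraries cannot give a p below 0.333. The lower level of miR-204-5p in both CUMS libraries was thus not past the threshold of these tests, which does not show that the groups were alike.

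The calls changed with the libraries that entered the test. Without control library a, miR-204-5p was called with a log2 fold change of -0.66 and miR-211-5p with one of 1.37, lower and higher in CUMS, in a fit that called 4.2% of all miRNAs. Without control library b, miR-211-5p was called with -1.25, in the opposite direction, and miR-204-5p was not, with -0.26, where 3.44% of all miRNAs were called. With CUMS library a or b left out, 0 of the arms were called, beside 5.43% and 2.46% of all miRNAs. At an adjusted p under 0.05, edgeR called 12 of 690 miRNAs without control library a, none of them an arm of miR-204 or miR-211, and 0 without any other library. In each of these fits 1 group holds a single library, which is assumed to vary like the others. Without control library a, that single library is control library b, which stands apart by its reads of the miR-183 and miR-200 clusters.

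**Figure D4:**
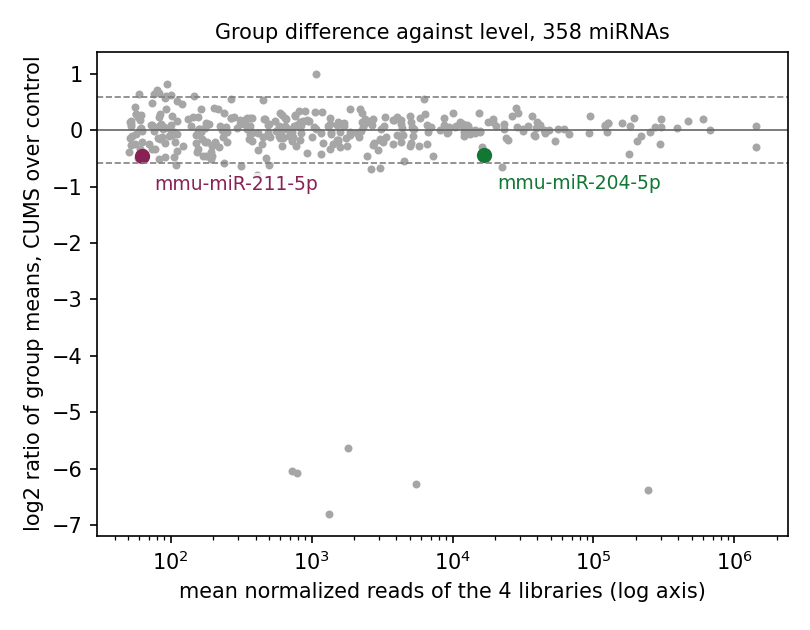
Log2 ratio of the authors' group means, CUMS over control (vertical axis), against the mean normalized reads of the 4 libraries on a log axis, 1 point for each of 358 miRNAs, with dashed lines at a fold of 1.5. mmu-miR-204-5p (-0.45) and mmu-miR-211-5p (-0.46) lie at nearly the same ratio above the lower dashed line, and the points between -5.64 and -6.80 are miRNAs of the miR-183 and miR-200 clusters.

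The tissue was dissected cortex, so miRNAs that mark cells beside the neurons were set beside the members. This list of marker miRNAs, like the members, was chosen with earlier results of these data known. miRNAs of multiciliated cells and the choroid plexus, from the miR-34b/c and miR-449 precursors, are listed for 6 of 7 names, and 5 of the 6 had a lower mean in CUMS, against 47.7% of the 719 miRNAs. Their median log2 ratio was -0.64, against 0.02 over all 719. Their summed level was 3359 and 4018 normalized reads in control against 2328 and 2293 in CUMS, which do not overlap, also with control library b left aside. Of these sums, miR-34c-5p alone gave 2974 (control library a), 3523 (control library b), 2050 (CUMS library a) and 1992 (CUMS library b). The sums therefore follow mainly this 1 miRNA. The exception with a higher CUMS mean was miR-34c-3p, the opposite arm of its hairpin, at a log2 ratio of 0.77. This arm was rare, at 10 and 4 reads for control mice and 16 and 8 for stressed mice. Of the 6, 2 were called by edgeR, beside the 3.34% of all miRNAs, and these 2 come from the same transcript. The 6 include both arms of miR-34b and of miR-34c, so they do not count as 6 independent markers beside these shares.

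The most abundant of them was miR-34c-5p, an miRNA of ciliated epithelia, whose reads were 3040 and 3524 in control against 2177 and 1880 in CUMS. It was called with a log2 fold change of -0.72 (edgeR, unadjusted p = 0.0068, adjusted p = 0.849). miR-34b-5p, from the same transcript, was called too, with 347 and 431 control reads against 253 and 245 CUMS reads. Its log2 fold change was -0.67 (edgeR, unadjusted p = 0.022, adjusted p = 0.849). For both, as for miR-204-5p, control library b was the highest and the groups did not overlap. For each read of miR-34c-5p there were 5.66 and 6.24 reads of miR-204-5p in control and 7.74 and 6.33 in CUMS. miR-449a-5p, another miRNA of ciliated cells, had 13 and 31 control reads against 14 and 15 CUMS reads, and was high in control library b alone. In tissue of many cell types, fewer cells of a type and less RNA per cell cannot be told apart, and the part of such cells in the level of miR-204-5p was not tested.

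The markers of epithelia and of sensory epithelia had another pattern. The 6 miRNAs of the epithelial list summed to 18302 normalized reads in control library b and to 99.8 to 194 in the other libraries, and the 3 of the sensory list, led by miR-182-5p, to 986521 against 3942 to 7145. Of these lists, edgeR called 4 of the 6 and 2 of the 3, all of them high in control library b alone. These calls are counted in the 3.34% of all miRNAs. miR-204-5p was also highest in control library b, by 1.31 times over control library a, while miR-211-5p was lowest but 1 there. Without control library b, the log2 ratio of miR-204-5p was -0.24, still lower in CUMS. With reads scaled to the library total without the miRNAs of these clusters, it was -0.44. The markers of cortical neurons had no lower mean in CUMS, with a median log2 ratio of 0.19 and 0 of 6 called. Their ratios ran from 0.01 for miR-153-3p, which edgeR put at -0.03, to 0.40 for miR-124-3p. miR-124-3p was also the only marker of the 6 whose groups did not overlap. Its reads were 26501 and 23152 in control against 31217 and 33239 in CUMS. The red cell miRNAs miR-451a and miR-144-3p had summed levels of 420 and 378 in control and 389 and 585 in CUMS.

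**Figure D5:**
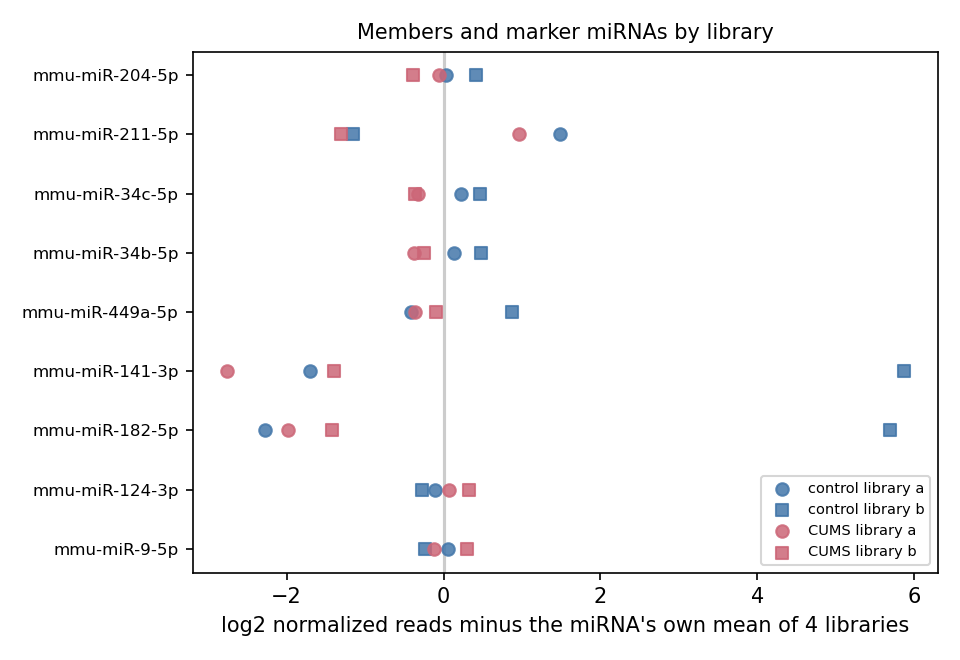
Log2 normalized reads in each library minus the mean of the same miRNA over the 4 libraries (horizontal axis), for mmu-miR-204-5p, mmu-miR-211-5p and 7 marker miRNAs. mmu-miR-204-5p, mmu-miR-34c-5p and mmu-miR-34b-5p have both CUMS libraries on the left of both control libraries, mmu-miR-211-5p has 1 library of each group on either side, and mmu-miR-141-3p and mmu-miR-182-5p are far to the right in control library b alone.

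The miRNAs with the pattern most like each member were sought among the 356 other miRNAs with a mean of at least 50. The measure was the root mean square difference of log2 normalized reads over the 4 libraries, after each miRNA was centred on its own mean. Nearest to miR-204-5p were miR-3061-3p with a difference of 0.07, miR-7688-5p with 0.08 and miR-770-3p with 0.09, against a median of 0.33. The reads of miR-3061-3p were 177 and 239 in control against 168 and 135 in CUMS, the same order of libraries at a far lower level. For miR-211-5p the nearest were miR-496a-3p with 0.95, miR-7068-3p with 0.98 and let-7e-5p with 0.99, against a median of 1.26. The nearest of them, miR-496a-3p, had 118 and 87 control reads against 126 and 65 CUMS reads, which has the same direction within groups and a much smaller size. By this measure miR-211-5p had no close counterpart among these miRNAs, which largely repeats how wide its gaps within groups were. The difference between the members was 1.27, close to the median difference of miR-211-5p from the others. In order of likeness, miR-211-5p was in place 351 of 357 from miR-204-5p, and miR-204-5p in place 201 from miR-211-5p. The measure was not scaled for spread, so the wide gaps of miR-211-5p alone set it far from steady miRNAs, miR-204-5p among them. These places are therefore no separate result on how unlike the members are. With 4 libraries, likeness of pattern is a description only.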

How the data were processed

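Small RNA was sequenced in 2 control and 2 CUMS libraries. The authors removed adaptors, low-quality reads and other noncoding RNAs, aligned the rest without mismatch to miRBase hairpins of the mouse, and counted them per mature miRNA; per the labels, Bowtie, DESeq and mm10 were used, and their versions for the miRNA steps are not given in the sources used here. The signal in the deposited table is the group mean of reads divided by size factors, with no columns of single samples. The authors' fold, log2 fold and p columns were not used. Its columns name no group, and were assigned through the group headings under which the paper prints the same values.

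Each deposited mean is a sum over both libraries of whole reads, each times the step of its library. Both steps were refined by least squares, and the best-matching whole reads were taken (relative residual at most 4.52e-15). For 2 control values the next pair came within 10 times that residual. The steps differed by 2.19% in control and 12.5% in CUMS. Size factors recomputed over 650 miRNAs were equal to those in the steps. Recovery and fits were tested on simulated data.

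The recovered counts, with 5 reads in a library as the minimum, were fitted in edgeR 4.0.16 (quasi-likelihood, TMM) and DESeq2 1.42.0 (Wald) under R 4.3.3 over all miRNAs with Benjamini-Hochberg adjustment. Python 3.11.15, numpy 2.4.6, pandas 2.3.3, scipy 1.17.1 and matplotlib 3.10.9 were used for the rest. Named miRNAs are the members, those of the same seed, the marker lists and the 3 nearest in pattern, besides miR-187-3p, which was named after its values were seen. The members and lists were chosen with earlier results of these data known. Intervals and floors cover counting error only. The p-values rest on the spread between these libraries, with the spread of each miRNA drawn toward that of the other miRNAs. Alternatives were other scalings, a pseudocount, other filters and tests, and leaving out each library. mRNA was not analysed here.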

Additional observations from a re-analysis of the deposited data

How the results depend on the processing

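The log2 ratio of miR-204-5p stayed negative under all alternatives run, from -0.36 with RPM of all miRNA reads to -0.49 by edgeR without a filter. With each library left out, it was between -0.63 and -0.24 as a ratio of means and between -0.68 and -0.26 by edgeR. That of miR-211-5p stayed between -0.49 and -0.34 with all libraries, and with each left out it ran from -2.00 to 1.39 as a ratio of means and from -2.05 to 1.37 by edgeR. From 0 to 2 members were called by edgeR when 1 library was left out, in fits that called 2.46% to 5.43% of all miRNAs. Without control library a both were called, miR-204-5p lower and miR-211-5p higher in CUMS, and without control library b miR-211-5p alone was, as lower. With 1 library in a group, that library is assumed to vary like the other group. Without control library a, it is control library b, which stands apart from the other libraries. All other tests and filters called 0 members. The edgeR test without a filter called 35 of 1038 miRNAs and that with at least 50 reads called 10 of 392, against 24 of 719. No paired analysis was possible because the group means carry no replicate numbers. The depth limits miR-204-3p, for which no ratio was computed.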

Other observations

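The steadiness of near-identical pairs was looked at after the values of miR-204-5p and miR-211-5p were seen. The reference held a sequence for 884 of the 1038 listed miRNAs, so pairs with any other listed miRNA could not be found. The search gave 13 pairs of the same length that differ by 1 base, with a mean of at least 1000 normalized reads for the more abundant one. The rarer miRNA came to 0.344% of the more abundant one for miR-376c-5p beside miR-376b-5p, to 0.370% for miR-211-5p beside miR-204-5p, and to 1.48% or more for the other 11 pairs. Between the highest and the lowest library this share changed by 8.13 times for miR-211-5p beside miR-204-5p, by 2.19 times for miR-376c-5p beside miR-376b-5p, which had 2 to 5 reads of the rarer miRNA, and by 1.09 to 1.65 times for the other 11.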
